A study of Oryza sativa Japonica Group with 32 samples.

Results

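The genes described here are the rice (Oryza sativa, japonica cultivar Nipponbare) genes whose symbol in the deposited expression table begins with OsWRKY. The rule used the symbol only and took 86 of the 38978 genes in the table. They carried 84 distinct symbols, since OsWRKY16 stood on 2 neighbouring identifiers (Os01g0665500 and Os01g0665750) and OsWRKY4 stood on 2 others (Os03g0758900 and Os03g0758950). A further 13 genes had a symbol that begins with WRKY without the prefix, among them WRKY45 and WRKY53, and fell outside the rule. Of the 86 genes, 21 lay on chromosome 1 and 15 on chromosome 5, with at least 1 on every other chromosome.

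WRKY proteins are plant transcription factors named after the amino acids of their DNA-binding domain, which binds the W-box in the promoters of target genes. Many of them act downstream of immune receptors and kinase cascades, some as activators and some as repressors of defence genes, and others take part in abscisic acid and gibberellin signalling, phosphate uptake, drought responses and leaf senescence. Several bind their own promoters or those of other WRKY genes, and VQ motif proteins are known as their partners.

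The study profiled polyA RNA of 8 tissues of this 1 cultivar. The young tissues were plumules germinated in the dark, plumules germinated in the light, 8-day seedlings and 2-week seedlings. The tissues of the reproductive stage were the panicle and, sampled 10 days after anthesis, the flag leaf and the embryo and endosperm of the developing seed. Each tissue had 2 biological replicates, and each replicate gave 1 library treated with the methyltransferase MjDim1, which marks N6-methyladenosine (m6A) for reading as mutations, and 1 untreated library. Transcript levels came from the 16 untreated libraries in TPM, a unit corrected for gene length in which every library sums to the same total, and m6A came as 1 pooled value per site and tissue. No plant was infected or treated with a hormone, and no mutant entered these groups.

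Reads worked back from the TPM values ranged from 12856679 to 15516038 per library. The 2 libraries of a tissue correlated at Pearson's r of 0.986 to 0.997 over the 86 OsWRKY genes on the log2(TPM + 1) scale, against 0.304 to 0.989 between libraries of different tissues, as a description across genes. Of the seed and floral markers matched by symbol, most but not all were highest in the labelled tissue, and the green leaf markers were highest in seedlings. In replicate 1, the endosperm storage protein gene Prol-01 stood at 5919 TPM in embryo against 72977 TPM in endosperm, and the embryo oil body gene OLE16 at 15830 TPM in embryo against 4164 TPM in endosperm, so each of these libraries held transcripts that mark the other seed tissue. All 5 floral MADS markers matched were also read at 1 TPM or more in endosperm, and 2 of them were lower in panicle than in endosperm, OsMADS13 at 55.8 and 58.3 TPM in panicle beside 67.8 and 70.5 TPM in endosperm and MADS58 at 43.7 and 52.4 TPM in panicle beside 58.4 and 55.1 TPM in endosperm. OsMADS7 had 279 and 296 TPM in panicle beside 247 and 227 TPM in endosperm. The embryo marker OsHB5 was listed at 0 in both embryo libraries, OSH1 was higher in panicle (43.7 and 45.6 TPM) than in embryo (14 and 13.7 TPM), and the green leaf marker RbcS3 was higher in panicle (8553 and 9068 TPM) than in flag leaf (5380 and 5208 TPM). In whole tissues, fewer cells of a type and less RNA per cell cannot be told apart.

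OsWRKY transcripts were most abundant in the flag leaf. The summed TPM of the 86 genes was 376 and 360 in dark plumules, 376 and 372 in light plumules, 628 and 604 in 8-day seedlings and 1068 and 1051 in 2-week seedlings. In the later tissues it was 598 and 586 in panicle, 2218 and 2265 in flag leaf, 308 and 314 in embryo and 281 and 306 in endosperm. The 2 flag leaf libraries lay about 2 times above the 2-week seedlings and above every other library. Scaling the TPM by median-of-ratios factors raised the endosperm mean to 482, against 293 as deposited, and left the flag leaf highest at 1971. The number of genes at a TPM of at least 1 in both libraries was 45 of 86 in dark plumules, 43 in light plumules, 55 in 8-day seedlings, 58 in 2-week seedlings, 48 in panicle, 60 in flag leaf, 29 in embryo and 35 in endosperm. In the same order, the OsWRKY shares were 52.3%, 50%, 64%, 67.4%, 55.8%, 69.8%, 33.7% and 40.7%. The shares of all 38978 genes were 56%, 55.9%, 57.9%, 56.3%, 61%, 52.6%, 51.6% and 50.4%.

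Of the 86 genes, 76 had 2 or more libraries with a TPM of 1 or above and were tested, and 22 reached it in all 16. The 10 genes that did not were OsWRKY27, OsWRKY48, OsWRKY54, OsWRKY57, OsWRKY84, OsWRKY86, OsWRKY105, OsWRKY106, OsWRKY116 and the OsWRKY4 copy Os03g0758950, and their highest tissue means lay between 0.0626 and 1.07 TPM. None of the 86 was at 0 in every library. A moderated F test with limma over the 8 tissues, adjusted by Benjamini-Hochberg over all genes tested, passed an adjusted p of 0.05 for 75 of the 76 genes, and 98.6% of the 28562 genes tested passed it too. OsWRKY56 was the 1 that did not, with an adjusted p of 0.072 by limma.

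**Figure D1:**
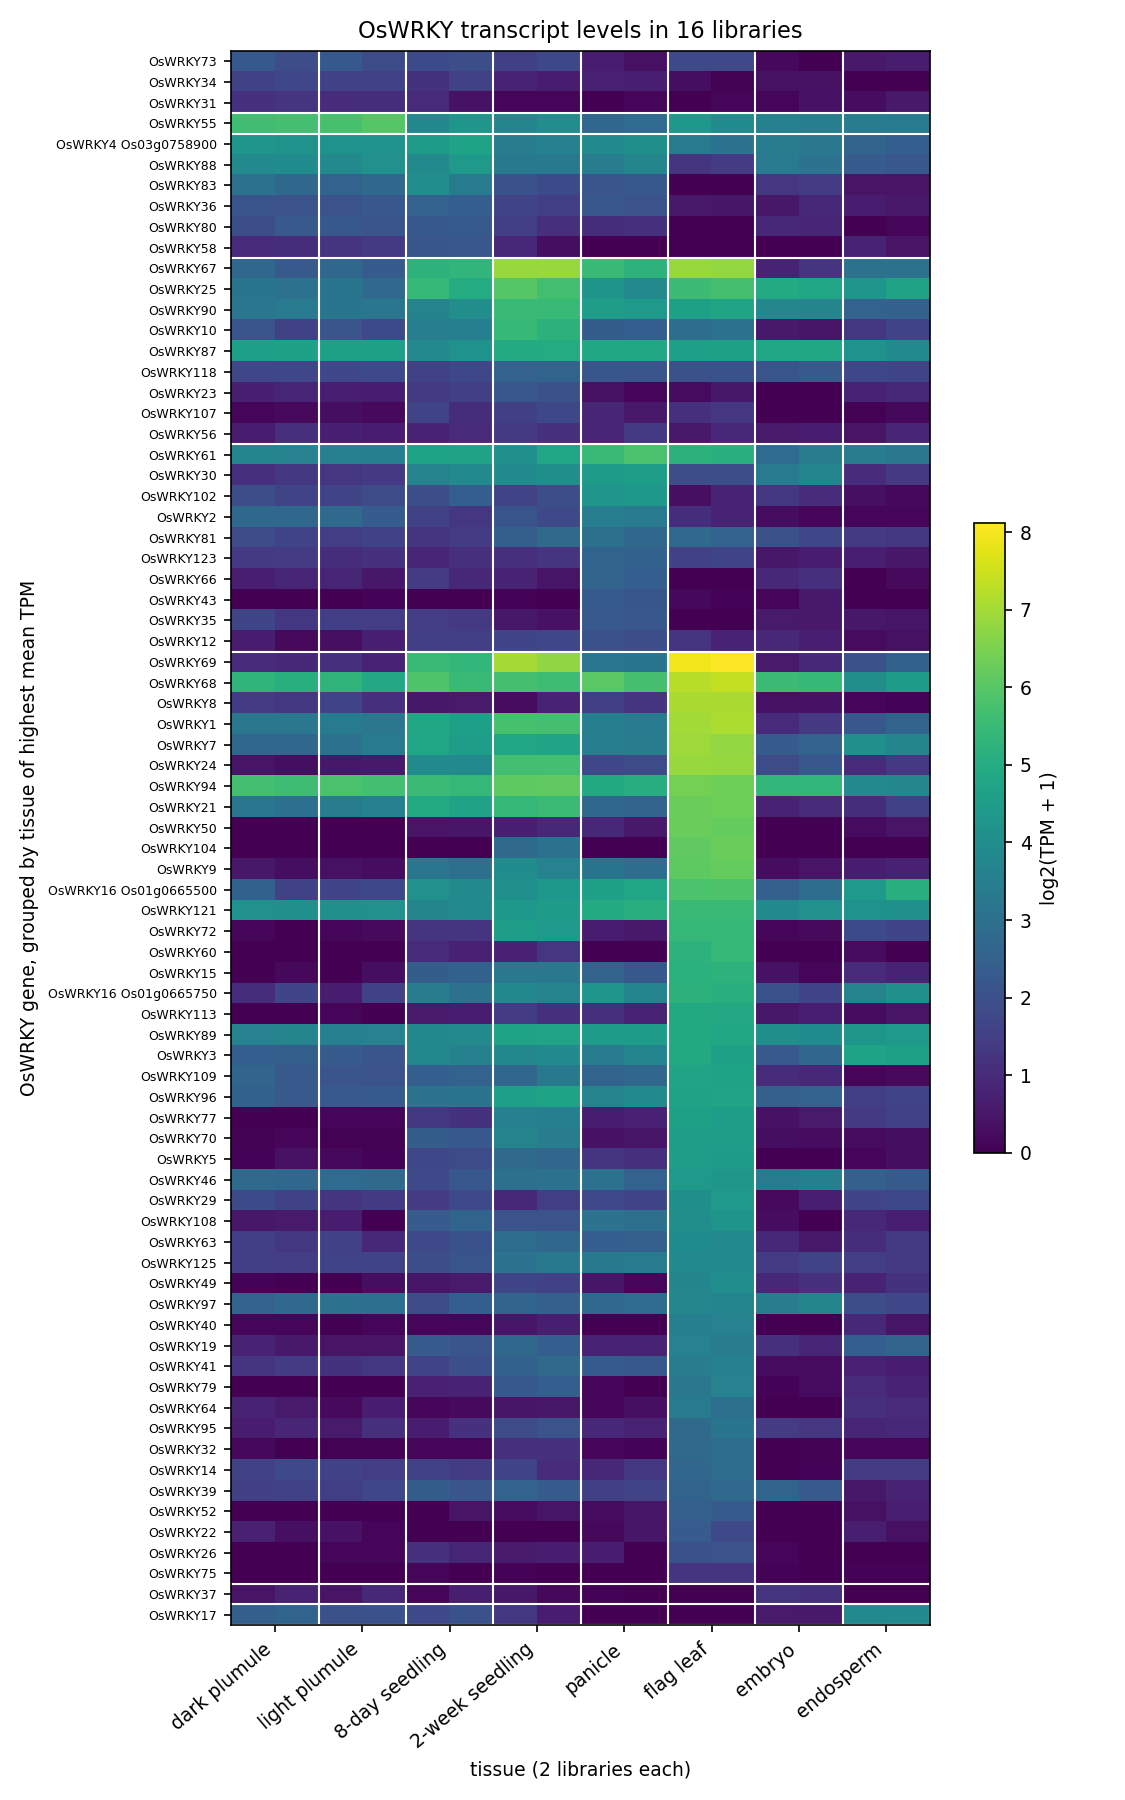
Transcript level of the 76 tested OsWRKY genes (rows) in the 16 untreated libraries (columns, 2 per tissue) as log2(TPM + 1), with genes grouped by the tissue of highest mean TPM and white lines between groups. The largest block, of 45 genes, is brightest in the flag leaf columns.

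The flag leaf was the highest tissue for 45 of the 76 genes (59.2%), against 21.6% of all genes tested. The panicle was the highest tissue for 10 OsWRKY genes (13.2%), against 26% of all genes, and in 9 of them both panicle libraries lay above all 14 others (20.4% of all genes). The 2-week seedling was highest for 9, the 8-day seedling for 6, the dark plumule for 3, and the light plumule, embryo and endosperm for 1 each. In 42 of the 45 flag leaf genes, both flag leaf libraries lay above all 14 others, against 5160 of the 6157 tested genes highest in flag leaf. Over all genes tested, 18.1% showed this pattern for the flag leaf and 20.4% for the panicle, beside 42 and 9 of the 76 OsWRKY genes. In 34 of the 45 the flag leaf mean was at least 2 times that of the next tissue, and in 27 that next tissue was the 2-week seedling. These counts, and that of genes at least 10 times above any other tissue, were not set against all genes. Some genes passed the filter of 1 TPM through the libraries of a single tissue, so the filter fixed their highest tissue. Among them were OsWRKY22, OsWRKY50 and OsWRKY75 for the flag leaf and OsWRKY43 for the panicle. Such genes were not counted apart, neither here nor over all genes. The median ratio of the highest to the second tissue was 2.14 over the 76 genes, and it ranged between 1.02 for OsWRKY67 and 98.2 for OsWRKY50.

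Of the flag leaf genes, 7 stood at least 10 times above any other tissue, namely OsWRKY8, OsWRKY50, OsWRKY104, OsWRKY60, OsWRKY113, OsWRKY40 and OsWRKY75. The last did so at only 1.37 and 1.35 TPM in flag leaf, near the filter of 1 TPM. OsWRKY8 (Os05g0583000, chromosome 5) had 136 TPM in both flag leaf libraries, and its other 14 libraries lay between 0.0538 and 2.15 TPM. OsWRKY50 (Os11g0117600) had 76.4 and 72.8 TPM in flag leaf and 0.898 TPM or less elsewhere. OsWRKY104 (Os11g0117400) had 70 and 77.8 TPM in flag leaf and 5.92 and 7.13 TPM in 2-week seedlings, and was listed at 0 in the 12 remaining libraries. OsWRKY8, OsWRKY50, OsWRKY104 and OsWRKY60 (the last at 36.6 and 42.7 TPM in flag leaf) had no overlap between flag leaf and any other tissue. OsWRKY104, OsWRKY40 and OsWRKY50 are neighbours on the short arm of chromosome 11, beside OsWRKY46 and OsWRKY52, in a segment that has a near-identical copy on chromosome 12 with OsWRKY97, OsWRKY95 and OsWRKY64. The sources used here do not say how reads were divided between such copies, so the split between them is uncertain, and the same holds for the 2 identifiers of OsWRKY16 and the neighbours OsWRKY125, OsWRKY61, OsWRKY63 and OsWRKY41.

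Among the abundant genes the profile was broader. OsWRKY69 (Os08g0386200) had 1.14 TPM or less in the 4 plumule libraries, 42.8 and 40.2 TPM in 8-day seedlings, 128 and 109 TPM in 2-week seedlings and 245 and 276 TPM in flag leaf, where it was the most abundant OsWRKY transcript. OsWRKY68 (Os04g0605100), studied for its part in immunity mediated by the receptor kinase XA21, was highest in flag leaf at 151 and 163 TPM but was also the leading OsWRKY transcript of the panicle (64.1 and 52.3 TPM), the 8-day seedling (58.3 and 43.2 TPM) and the embryo (46.2 and 42.5 TPM) by mean level. OsWRKY94 (Os12g0597700) was among the 3 most abundant in 5 tissues, with means of 48.9 TPM in dark plumules, 52.1 in light plumules, 43.6 in 8-day seedlings, 68.4 in 2-week seedlings and 40.1 in embryo. Its own highest level was in flag leaf, at 85.2 and 78.5 TPM, where it was not among the 3 most abundant. OsWRKY87 (Os07g0583700) was read in all tissues, with its 16 libraries between 13 TPM in 8-day seedlings and 31.1 TPM in 2-week seedlings, and it was called in 4 of the 6 comparisons, with log2 fold changes of -0.39 in flag leaf against 2-week seedlings, 1.02 in 2-week against 8-day seedlings, -0.66 in 8-day seedlings against light plumules and 0.82 in embryo against endosperm. In the endosperm the 3 leading OsWRKY genes were the OsWRKY16 copy Os01g0665500 (19.6 and 33 TPM), OsWRKY3 (25 and 23.7 TPM) and OsWRKY25 (17.9 and 24.8 TPM). These rankings are among the 86 OsWRKY genes only. Outside the rule, WRKY53 averaged 728 TPM, WRKY71 535 TPM and WRKY74 264 TPM in flag leaf, and WRKY53 averaged 31.0 TPM in endosperm.

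**Figure D2:**
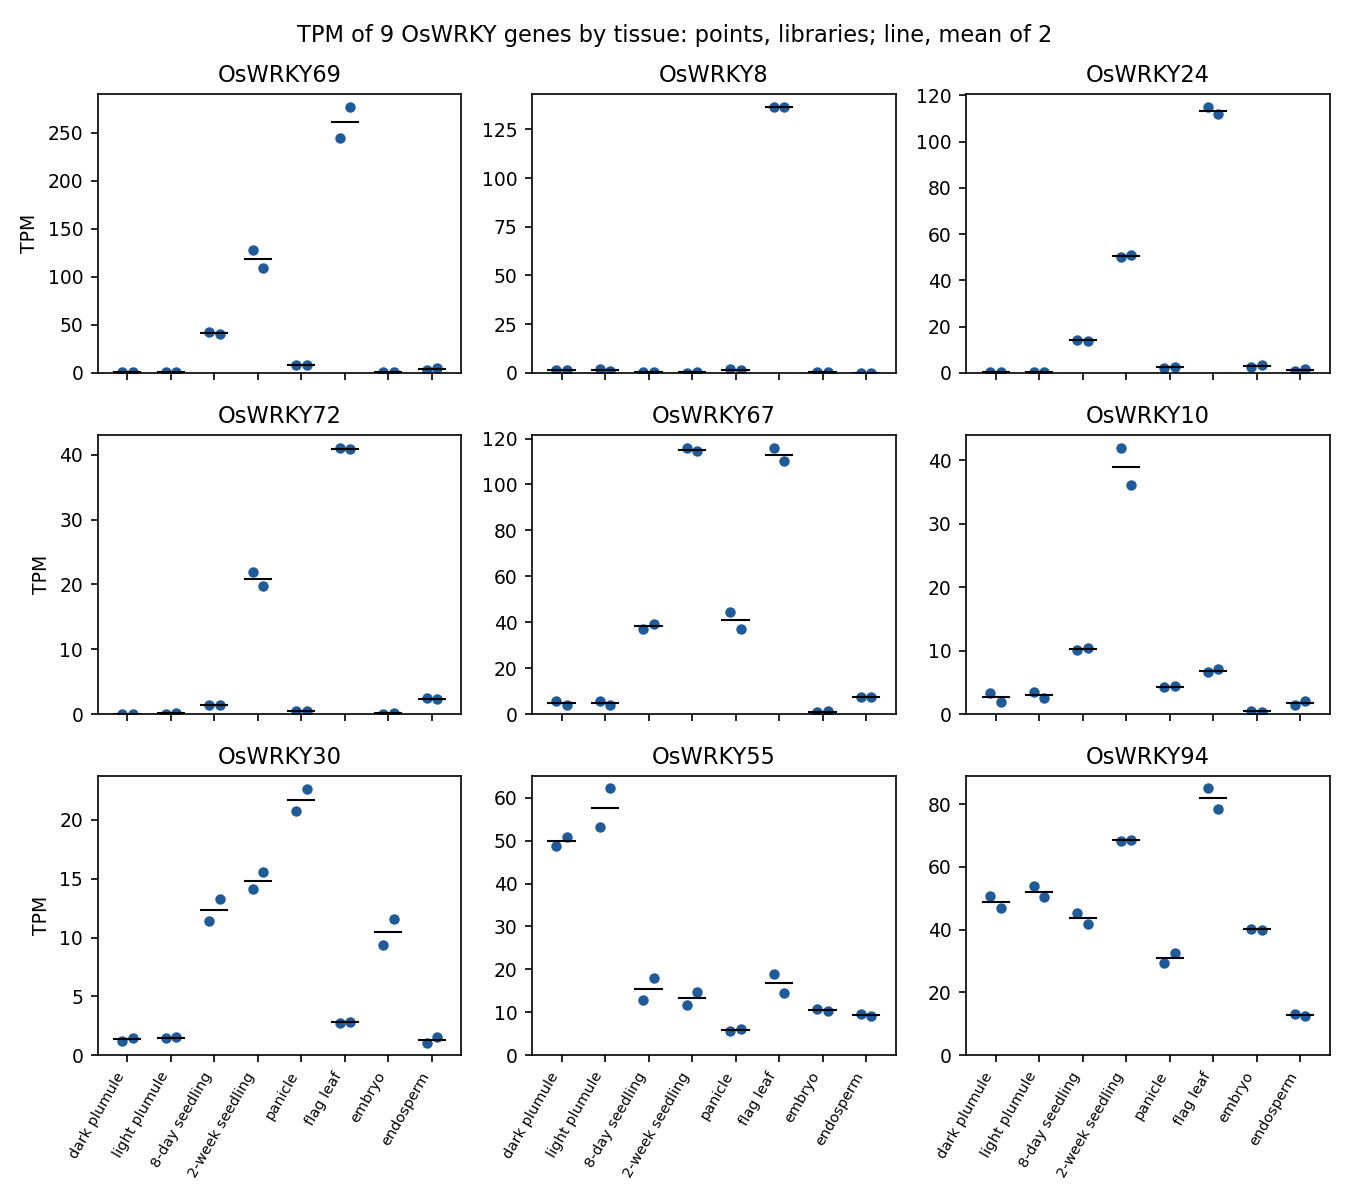
TPM of 9 OsWRKY genes in the 8 tissues, with 1 point per library and a line at the mean of 2 libraries, each panel on its own axis starting at 0. OsWRKY69, OsWRKY8, OsWRKY24, OsWRKY72 and OsWRKY94 are highest in flag leaf. OsWRKY10 is highest in 2-week seedlings, OsWRKY30 in panicle and OsWRKY55 in plumules, while OsWRKY67 is at a like level in 2-week seedlings and flag leaf.

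The first comparison set the flag leaf of the adult plant against the 2-week seedling. Of the 76 OsWRKY genes, 44 rose and 20 fell in flag leaf (limma on log2(TPM + 1), adjusted p under 0.05 over all genes tested), against 32.9% of all genes higher and 33.8% lower. As shares, 57.9% of the OsWRKY genes rose and 26.3% fell, and their median log2 fold change was 0.87, beside 0 over all genes tested. With a fold change of at least 2 required as well, 34 rose (13.5% of all genes) and 9 fell (17.6% of all genes). The genes that rose include OsWRKY22, OsWRKY50 and OsWRKY75, which passed the filter through the flag leaf libraries only.

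OsWRKY8 had the largest rise, with 136 TPM in both flag leaf libraries against 0.199 and 0.712 TPM in 2-week seedlings (log2 fold change 6.58 ± 0.19 SE, adjusted p = 1.93e-12 by limma). OsWRKY50 followed at a log2 fold change of 5.43 ± 0.13, OsWRKY60 at 4.32 ± 0.16, OsWRKY113 at 3.64 ± 0.14 and OsWRKY104 at 3.32 ± 0.11. The pseudocount of 1 shrinks these values for genes near 0. Among genes with a known role, OsWRKY5, which promotes leaf senescence, had 22.2 and 21.1 TPM in flag leaf against 5.97 and 5.47 TPM in 2-week seedlings (log2 fold change 1.75 ± 0.12). OsWRKY70, which favours defence over growth, had 22.2 and 22.1 TPM in flag leaf against 11.4 and 9.75 TPM in 2-week seedlings (log2 fold change 1.00 ± 0.11). OsWRKY24, a repressor of abscisic acid and gibberellin signalling in aleurone cells, had 115 and 112 TPM in flag leaf against 50 and 50.8 TPM in 2-week seedlings. OsWRKY21 and OsWRKY108, which activate phosphate transporter genes, were also higher in flag leaf, at log2 fold changes of 0.82 ± 0.16 and 2.02 ± 0.19. In all of these genes the libraries of the 2 tissues did not overlap.

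OsWRKY10 moved the other way. It had 6.55 and 7.13 TPM in flag leaf against 41.9 and 36 TPM in 2-week seedlings (log2 fold change -2.35 ± 0.17 SE, adjusted p = 3.97e-08 by limma). OsWRKY10 is known for its part in phosphate uptake and defence. OsWRKY30, linked to drought and disease responses, fell to 2.75 and 2.84 TPM in flag leaf, against 14.1 and 15.6 TPM in 2-week seedlings. OsWRKY88, OsWRKY90 and OsWRKY118 fell by 1.95, 0.84 and 0.56 on the log2 scale. OsWRKY67, a gene for blast and bacterial blight resistance, was abundant in both tissues and not called, at 116 and 110 TPM in flag leaf against 116 and 115 TPM in 2-week seedlings (log2 fold change -0.03 ± 0.17, adjusted p = 0.92 by limma).

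Between 2-week and 8-day seedlings, 37 OsWRKY genes were higher at 2 weeks and 12 were lower, against 35.4% of all genes higher and 31.6% lower. The OsWRKY shares were 48.7% higher and 15.8% lower, with a median log2 fold change of 0.36 beside 0.01 over all genes. At a fold change of at least 2, 19 were higher (13.5% of all genes) and 3 were lower (14.6%). OsWRKY72, known from abscisic acid and jasmonate responses and bacterial blight susceptibility, had 22 and 19.8 TPM at 2 weeks against 1.41 and 1.37 TPM at 8 days (log2 fold change 3.20 ± 0.11 SE, adjusted p = 2.44e-11 by limma). OsWRKY104 was read at 2 weeks and listed at 0 at 8 days. OsWRKY77, OsWRKY10 and OsWRKY24 rose by log2 fold changes of 2.29 ± 0.12, 1.83 ± 0.17 and 1.77 ± 0.13. The largest fall was that of OsWRKY83, with 3.15 and 2.54 TPM at 2 weeks against 14.7 and 9.49 TPM at 8 days (log2 fold change -1.74 ± 0.17). The OsWRKY4 copy Os03g0758900 and OsWRKY88 fell by 1.10 and 0.83 on the log2 scale.

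Between 8-day seedlings and light-grown plumules, 42 OsWRKY genes were higher in the seedling and 8 were lower, against 28.5% of all genes higher and 30.2% lower. The OsWRKY shares were 55.3% and 10.5%, with a median log2 fold change of 0.45 beside -0.01 over all genes. At a fold change of at least 2, 23 were higher (12.9% of all genes) and 2 were lower (5.45%). Beside this, 5 of 5 green leaf markers were higher, with sums of 42857 and 39977 TPM in 8-day seedlings against 2990 and 2733 TPM in light plumules, and their part in the result was not tested. OsWRKY69 had 42.8 and 40.2 TPM in 8-day seedlings against 1.14 and 0.723 TPM in light plumules (log2 fold change 4.47 ± 0.17 SE, adjusted p = 9.74e-11 by limma). OsWRKY24, OsWRKY9, OsWRKY67 and OsWRKY30 rose by log2 fold changes of 3.37 ± 0.13, 2.77 ± 0.14, 2.76 ± 0.17 and 2.42 ± 0.14. OsWRKY55 (Os03g0321700) was the main gene of the opposite direction, at 12.8 and 18 TPM in 8-day seedlings against 53.1 and 62.2 TPM in light plumules (log2 fold change -1.85 ± 0.16). It was the most abundant OsWRKY transcript of both plumule groups. In light plumules WRKY71, outside the rule, averaged 59.8 TPM beside 57.6 TPM for OsWRKY55. OsWRKY97, OsWRKY46, OsWRKY87 and OsWRKY121 fell by 0.85, 0.81, 0.66 and 0.30 on the log2 scale, and the OsWRKY121 call was lost without either light plumule library and without 8-day seedling replicate 1, at log2 fold changes between -0.32 and -0.19.

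Read as a series of stages, light plumule, 8-day seedling, 2-week seedling and flag leaf, 23 of the 76 OsWRKY genes (30.3%) had both libraries of every stage above both of the stage before, against 7.26% of all genes tested. They included OsWRKY1, OsWRKY5, OsWRKY21, OsWRKY24, OsWRKY69, OsWRKY70 and OsWRKY72. OsWRKY70, for example, averaged 0.0397 TPM in light plumules, 3.98 in 8-day seedlings, 10.6 in 2-week seedlings and 22.2 in flag leaf. No OsWRKY gene stood in strictly falling order over the 4 stages, against 7.79% of all genes. The stages are separate samplings that also differ in organ and growth conditions, and age cannot be told apart from these.

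**Figure D3:**
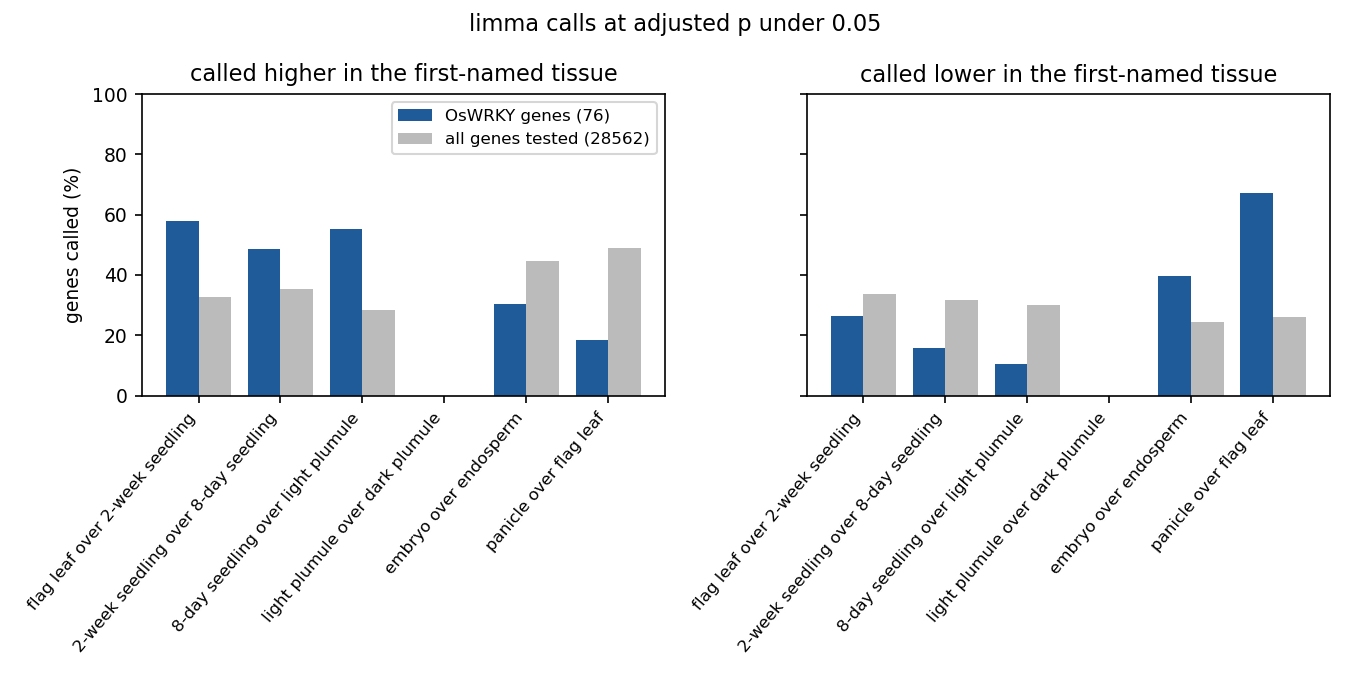
Share of the 76 OsWRKY genes (blue) and of all 28562 genes tested (grey) called higher (left panel) or lower (right panel) in the first-named tissue of each comparison, in percent, by limma at an adjusted p under 0.05. The OsWRKY share called higher is above that of all genes in the 3 leaf comparisons, and the OsWRKY share called lower is 67.1% in panicle over flag leaf.

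No difference in transcript level between light and dark plumules was detected for any OsWRKY gene. In light against dark plumules, 0 of the 76 genes were called in either direction by limma, against 0.0% of all genes higher and 0.0105% lower (0.007% lower at a fold change of at least 2). By limma voom on the reads worked back from TPM, 0 of the 76 were called as well. Over all 28562 genes tested, voom called 27 higher and 14 lower in light. At an unadjusted p under 0.05, 4 OsWRKY genes passed with limma and 5 with voom, beside 6.52% of all genes with limma. The share of all genes with voom at this level was not computed. The lowest adjusted p was 0.354 by limma, for OsWRKY7, with 7.27 and 9.12 TPM in light plumules against 5.59 and 5.72 TPM in dark plumules. Its libraries did not overlap, but its log2 fold change was 0.46 ± 0.13 SE. The log2 fold changes of the 76 genes lay between -0.51 for OsWRKY17 and 0.46, with a median of -0.01. Over all genes tested, light and dark libraries correlated at Pearson's r of 0.993 to 0.995, beside 0.994 between the 2 libraries of either group. The 5 green leaf markers summed to 2990 and 2733 TPM in light against 3696 and 3751 TPM in dark plumules, and 0 of them were called.

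In the developing seed, OsWRKY genes fell on both sides. In embryo against endosperm, 23 were higher in embryo and 30 were lower, against 44.6% of all genes higher and 24.4% lower. The OsWRKY shares were 30.3% and 39.5%. At a fold change of at least 2, 8 were higher (20.2% of all genes) and 13 were lower (13.0%). Scaling by median-of-ratios factors gave 31.0% of all genes higher and 36.8% lower, and 20 OsWRKY genes higher and 33 lower. The same scaling moved the median log2 fold change of all genes to -0.03, against 0.20 as deposited. The median of the OsWRKY genes was -0.05 as deposited and -0.24 after scaling.

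OsWRKY17 (Os01g0972800) was the 1 tested OsWRKY gene with its highest mean in endosperm, at 0.517 and 0.483 TPM in embryo against 13.6 and 14 TPM in endosperm (log2 fold change -3.30 ± 0.17 SE, adjusted p = 9.73e-10 by limma). It was listed at 0 in panicle and flag leaf and lay between 0.555 and 5.17 TPM in the plumules and seedlings. OsWRKY3 had 3.77 and 5.47 TPM in embryo against 25 and 23.7 TPM in endosperm (log2 fold change -2.19 ± 0.16). OsWRKY67 fell to 0.75 and 1.37 TPM in embryo, against 7.34 TPM in both endosperm libraries. The 2 identifiers of OsWRKY16 had log2 fold changes of -2.02 ± 0.27 and -1.99 ± 0.31. On the embryo side, OsWRKY30 had 9.33 and 11.6 TPM in embryo against 1.05 and 1.57 TPM in endosperm (log2 fold change 2.31 ± 0.14). OsWRKY97, OsWRKY94, OsWRKY68 and OsWRKY90 were higher in embryo by log2 fold changes of 1.74 ± 0.16, 1.58 ± 0.08, 1.26 ± 0.18 and 1.22 ± 0.11. Beside these differences, the summed level of 4 endosperm markers was 6466 and 6648 TPM in embryo against 82933 and 75509 TPM in endosperm, and that of 5 embryo markers 30429 and 26148 TPM in embryo against 6517 and 7645 TPM in endosperm, and their part in the result was not tested. The floral markers summed to 14.4 and 14.5 TPM in embryo against 404 and 381 TPM in endosperm, and their part was not tested either. OsWRKY29, known from seed dormancy, was low in both, at 0.159 and 0.597 TPM in embryo against 2.24 and 2.36 TPM in endosperm (log2 fold change -1.28 ± 0.21).

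Most OsWRKY genes were lower in panicle than in flag leaf. In panicle, 14 OsWRKY genes were higher and 51 were lower than in flag leaf, against 48.9% of all genes higher and 26.2% lower. The OsWRKY shares were 18.4% and 67.1%, and the median log2 fold change was -1.26 beside 0.30 over all genes. At a fold change of at least 2, 10 were higher (28.0% of all genes) and 44 were lower (14.2%). After median-of-ratios scaling the medians were -1.45 and 0.06, the OsWRKY counts 14 and 52, and the shares of all genes 39.3% higher and 34.5% lower. This comparison uses the same flag leaf libraries as the one with 2-week seedlings. OsWRKY22, OsWRKY50 and OsWRKY75, which passed the filter through the flag leaf libraries only, are among the 51. OsWRKY104 and OsWRKY60 were listed at 0 in both panicle libraries. OsWRKY24 had 2.28 and 2.64 TPM in panicle against 115 and 112 TPM in flag leaf (log2 fold change -5.05 ± 0.13 SE, adjusted p = 2.91e-13 by limma). OsWRKY72 fell to 0.533 and 0.454 TPM in panicle, against 41 TPM in both flag leaf libraries, and OsWRKY70 to 0.326 and 0.381 TPM in panicle, against 22.2 and 22.1 TPM in flag leaf.

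A smaller set was higher in panicle. OsWRKY102 had 17.7 and 19.2 TPM in panicle against 0.268 and 0.725 TPM in flag leaf (log2 fold change 3.72 ± 0.19 SE, adjusted p = 4.58e-10 by limma). OsWRKY30 had 20.8 and 22.6 TPM in panicle against 2.75 and 2.84 TPM in flag leaf (log2 fold change 2.58 ± 0.14). OsWRKY2, OsWRKY88 and the OsWRKY4 copy Os03g0758900 were higher in panicle by log2 fold changes of 2.49 ± 0.16, 2.23 ± 0.16 and 0.77 ± 0.12. OsWRKY61 was the second most abundant OsWRKY transcript of the panicle, at 44 and 54.4 TPM, but it was also read at 36.3 and 34.7 TPM in flag leaf. OsWRKY43 had the largest ratio of panicle to the next tissue among the 10 panicle genes, 13.4, at 3.96 and 3.51 TPM in panicle and 0.462 TPM or less in each of the other 14 libraries.

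Some genes with a described role were low in all of these tissues. OsWRKY22, linked to blast resistance and aluminium tolerance, had 4.05 and 2.43 TPM in flag leaf, was listed at 0 in both seedling groups and in embryo, and stayed under 1 TPM elsewhere. OsWRKY31, linked to blast resistance and auxin responses, had a highest mean of 1.30 TPM, in dark plumules. OsWRKY12 peaked at 2.97 TPM in panicle, OsWRKY23 at 3.33 TPM in 2-week seedlings, OsWRKY36 at 4.62 TPM and OsWRKY80 at 3.84 TPM in 8-day seedlings.

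Genes around the WRKY proteins in the defence pathway were read from lists matched by symbol, with 12 of 14 names matched for the chitin cascade, 5 of 6 for salicylic acid, 6 of 8 for pathogenesis related, 8 of 12 for phytoalexin and 5 of 7 for senescence genes. A name can stand on several genes, and names without a match, such as MKK4, KSL4, KSL7 and CYP99A3, were not analysed here. The counts below stand beside 32.9% of all genes higher and 33.8% lower in flag leaf against 2-week seedlings, 35.4% and 31.6% in 2-week against 8-day seedlings, 28.5% and 30.2% in 8-day seedlings against light plumules, and 48.9% and 26.2% in panicle against flag leaf. Of the 13 WRKY genes outside the rule, 12 were higher and 1 lower in flag leaf than in 2-week seedlings, and 0 were higher and 13 lower in panicle than in flag leaf. WRKY45, a salicylic acid pathway regulator, had 10.8 and 10.2 TPM in panicle against 246 and 255 TPM in flag leaf. Of 29 VQ motif genes tested, 17 were higher and 4 lower in flag leaf than in 2-week seedlings, and 4 were higher and 24 lower in panicle than in flag leaf. OsVQ10 had 4.37 and 4.46 TPM in panicle against 332 and 336 TPM in flag leaf. Of 9 diterpenoid phytoalexin genes, 6 were higher and 2 lower in flag leaf than in 2-week seedlings, 8 were higher and 0 lower in 2-week than in 8-day seedlings, and 0 were higher and 9 lower in panicle than in flag leaf. OsCPS2, a diterpene cyclase gene of phytoalexin synthesis, had a log2 fold change of 1.70 ± 0.10 SE in flag leaf against 2-week seedlings.

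Upstream of WRKY proteins, chitin is perceived by receptors that act through a kinase cascade. Of 13 chitin receptor and kinase cascade genes, 3 were higher and 7 lower in flag leaf than in 2-week seedlings. In 2-week against 8-day seedlings, 9 were higher and 3 lower. In 8-day seedlings against light plumules, 4 were higher and 8 lower, and in panicle against flag leaf, 6 were higher and 4 lower. Whether this list and the OsWRKY genes differ was not tested. Of 5 salicylic acid genes, 4 were higher and 0 lower in flag leaf than in 2-week seedlings, and 0 were higher and 4 lower in panicle than in flag leaf. Of 11 pathogenesis related genes, 2 were higher and 8 lower in flag leaf than in 2-week seedlings. In 2-week against 8-day seedlings, 8 were higher and 1 lower, and in 8-day seedlings against light plumules, 7 were higher and 0 lower. In panicle against flag leaf, 4 were higher and 5 lower. Of 5 leaf senescence genes, 1 was higher and 2 lower in flag leaf than in 2-week seedlings, while 5 were higher and 0 lower in 2-week than in 8-day seedlings. No gene of these lists was called in light against dark plumules. The medians of these lists on the log2 scale in flag leaf against 2-week seedlings were 1.22 for WRKY genes outside the rule, 0.61 for VQ, 0.80 for phytoalexin, 0.56 for salicylic acid, -0.44 for chitin cascade, -0.82 for pathogenesis related and -0.14 for senescence genes, beside 0 over all genes.

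The m6A table listed 252 sites in 55 OsWRKY genes, out of 205691 sites in all, and 31 OsWRKY genes had none. A site was counted in a tissue where it carried the detection flag and a read depth of at least 20. By this rule 209 sites in 48 OsWRKY genes were counted in at least 1 tissue. Of the tested OsWRKY genes 61.8% had a counted site, against 72.5% of all tested genes, and OsWRKY genes with a counted site had 4.35 each on average, against 7.73 in other genes. The median depth over the 252 sites was 11 reads in dark plumules, 13 in light plumules, 24 in both seedling groups, 28.5 in panicle, 81 in flag leaf, 14 in embryo and 9.5 in endosperm. The number of counted sites was 27 in dark plumules, 35 in light plumules, 50 in 8-day seedlings, 41 in 2-week seedlings, 50 in panicle, 117 in flag leaf, 33 in embryo and 23 in endosperm. The tissue with the deepest reads was thus also the one with the most sites, and the fractions have no replicate values, so none of what follows was tested.

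**Figure D4:**
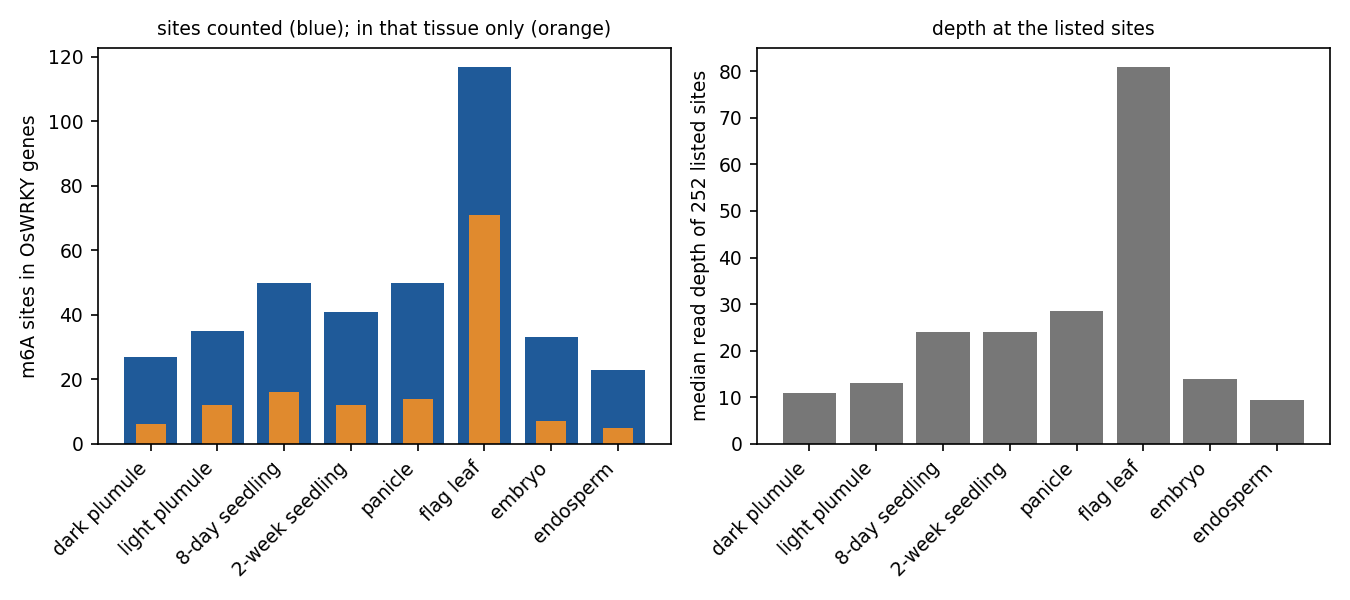
Left, number of m6A sites in OsWRKY genes counted in each tissue (blue) and counted in that tissue only (orange). Right, median read depth over the 252 listed sites in each tissue; flag leaf is highest in both panels, with 117 sites and a depth of 81.

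Of the 209 sites, 143 (68.4%) were counted in 1 tissue only, against 50.2% of sites in other genes. Flag leaf held 71 of these, spread over 30 genes, with 7 in OsWRKY125 and 6 in OsWRKY104. For 33 of the 71, no other tissue reached a depth of 20, so a site there was not detectable at this depth. For the other 38, at least 1 other tissue was deep enough, and 20 of these had a fraction of at least 0.1 in such a tissue without being counted there.

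The counted sites were spread over coding sequence and 3' UTRs. Coding sequence (CDS) held 54.5% of the counted OsWRKY sites and the 3' UTR 26.8%, against 41.6% and 37.3% in other genes. Averaged over the 8 tissues, the mean fraction of counted sites was 0.463 in the 3' UTR and 0.40 in CDS of OsWRKY genes, against 0.511 and 0.312 in other genes. The 3' UTR mean of OsWRKY genes was above their CDS mean in 7 of 8 tissues, by 0.00745 to 0.171, and in light plumules the difference was -0.0328. Over all regions the mean was 0.431 for OsWRKY genes and 0.431 for other genes.

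The method reads the methylated A itself as a mutation, and the sites are grouped here by the bases around it. A purine before and a C after the A (RAC) stood at 51.7% of the counted OsWRKY sites, against 51.6% in other genes, and GAT at 19.1%, against 20.5%. The mean fraction was 0.377 at RAC sites, 0.211 at GAT sites and 0.730 at the other motifs, against 0.433, 0.251 and 0.604 in other genes. Of the counted values per site and tissue, 14.6% in OsWRKY genes and 12% in other genes were a fraction of exactly 1. These were not split by motif, and their part in the means was not tested. The commonest 5-base motifs were agAca and agAtg, with the methylated A in capitals, at 22 of the 209 sites each (10.5%). In other genes they stood at 8.47% and 7.8% of counted sites.

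Most sites per gene were counted in OsWRKY90 (18, of which 16 in CDS), OsWRKY87 (15), OsWRKY94 (15), OsWRKY121 (14) and the OsWRKY4 copy Os03g0758900 (12). These genes were read in all 16 libraries. The most abundant OsWRKY transcript, OsWRKY69, had 9 counted sites, and OsWRKY8 had 4. OsWRKY50, at 74.6 TPM in flag leaf, was the 1 gene of 15 with a mean of at least 50 TPM that had no listed site.

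In all 8 tissues 6 sites were counted, 2.87% of the 209 against 6.82% of the sites of other genes, and they lay in 3' UTRs of 4 genes read in all 16 libraries. Their number was 2 at a depth of 50 and 15 with a fraction of at least 0.1 in place of the flag. Positions are on IRGSP-1.0 as the table gives them. The 5 bases around each site are shown because the calibration probes of the method carry m6A in motifs of this length. They run 5' to 3' on the transcript strand, with the methylated A in capitals and sites ordered by mean fraction.
OsWRKY87, chromosome 7, position 23654339, minus strand: gaAcc
OsWRKY4 (Os03g0758900), chromosome 3, position 31393822, plus strand: ggAca
OsWRKY94, chromosome 12, position 25101058, minus strand: tgAct
OsWRKY87, chromosome 7, position 23654258, minus strand: ggAtt
OsWRKY121, chromosome 3, position 30425139, plus strand: agAct
OsWRKY94, chromosome 12, position 25101153, minus strand: ggAcc
Of these, 5 carry a purine before and a C after the A, and the second OsWRKY87 site carries GAT.

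The first OsWRKY87 site was the most methylated, with a mean fraction of 0.846, a lowest value of 0.562 in dark plumules and a fraction of 1.00 in panicle, flag leaf and endosperm, at depths of 67 to 118. The OsWRKY4 site had a mean of 0.842 and ranged between 0.591 in 2-week seedlings and 1.00 in dark plumules, 8-day seedlings and panicle, at depths of 21 to 110. Both sites stayed above 0.5 in every tissue. The first OsWRKY94 site had a mean of 0.427, the second OsWRKY87 site 0.412, the OsWRKY121 site 0.368 and the second OsWRKY94 site 0.194. The 2 sites of OsWRKY94 lie in the same 3' UTR, and the second was lower than the first in every tissue, with a highest value of 0.298 in endosperm beside 0.510 for the first.

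**Figure D5:**
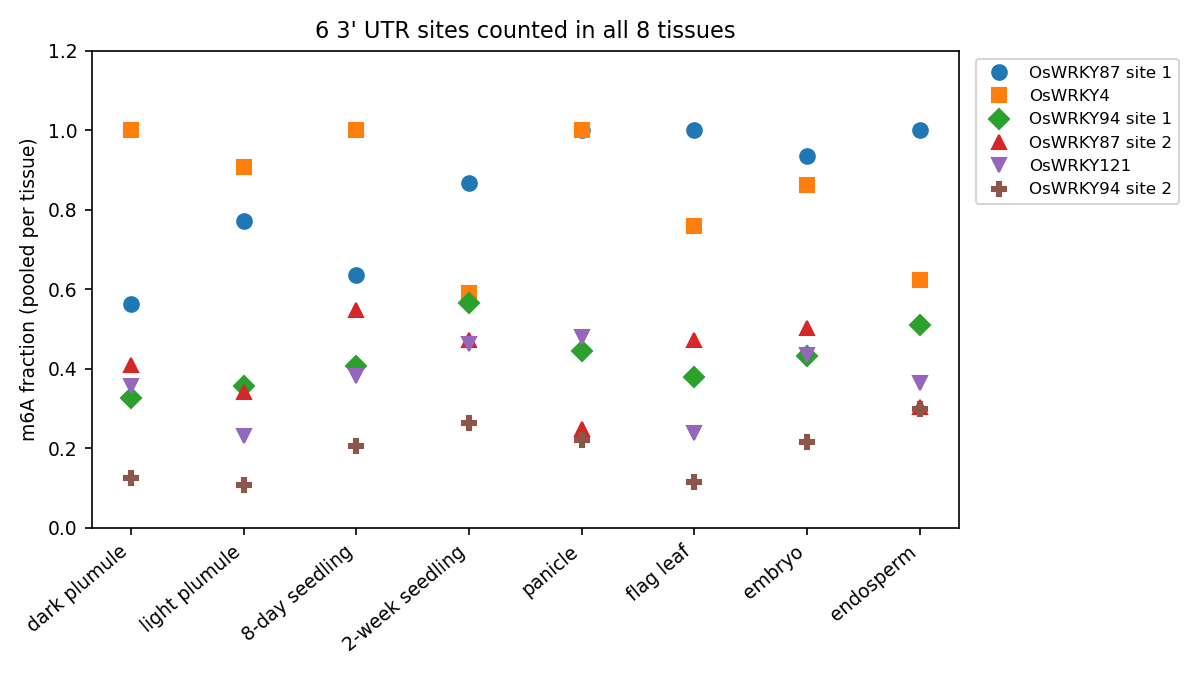
Pooled m6A fraction (0 to 1) of the 6 OsWRKY sites counted in all 8 tissues, all in 3' UTRs, by tissue; OsWRKY4 is the copy Os03g0758900, and sites 1 and 2 of a gene are in order of mean fraction. OsWRKY87 site 1 and OsWRKY4 stay above 0.5 and OsWRKY94 site 2 below 0.3.

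For the range of a site over tissues, the 23 sites in 5 genes whose depth was never below 50 were taken. Of the 10 with the widest range, 7 lay in CDS and 9 outside the RAC motif, beside 13 in CDS and 13 outside RAC of all 23. The OsWRKY94 site at position 25101752 (acAca) had a fraction of 1.00 in 8-day seedlings, 0.387 in 2-week seedlings and 0 in the other 6 tissues, at depths of 50 to 303. The OsWRKY87 coding site at position 23654871 (gcAgc) had 0.189 in dark plumules, 0.739 in light plumules, 0.962 in 8-day seedlings, 0.267 in 2-week seedlings, 1.00 in panicle, flag leaf and endosperm and 0.917 in embryo, at depths of 137 to 298. The OsWRKY25 site at chromosome 8, position 8258741 (gaAgc), annotated in an incomplete transcript, had 0.860 in flag leaf and between 0.188 and 0.427 in the other 7 tissues. With 1 pooled value per tissue, these ranges cannot be set against replicate spread.

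In light against dark plumules, 47 sites were counted in at least 1 of the 2 groups, of which 26 had a higher and 20 a lower fraction in light. The mean difference of light minus dark was 0.140 (mean fractions 0.379 in light and 0.239 in dark), against 0.00826 over sites of other genes. It depended on which sites were taken. Over the 14 sites counted in both groups it was 0.0265, over the 34 counted in light 0.235, over the 27 counted in dark -0.0390, and over 82 sites chosen by their count in the other 6 tissues 0.0372. Among sites counted in either group at a depth of 50 or more, the largest difference was at the OsWRKY94 coding site at position 25101786 (gtAtg), with 0.793 in light and 0.081 in dark plumules. OsWRKY94 position 25101873 (ttAct) had 0.530 in light and 0.107 in dark, OsWRKY87 position 23656961 (caAct) 0.564 in light and 0.113 in dark, and OsWRKY121 position 30423274 (atAgc) 0.574 in light and 0.199 in dark. On the other side, OsWRKY94 position 25102764 (gaAgg) had 0.268 in light and 0.529 in dark. The named sites were picked for the largest differences in either direction. Of these sites only OsWRKY87 position 23656961 is in a RAC motif, and none is in GAT. Those in OsWRKY94 had both signs, which with 1 pooled value per group cannot be set against replicate spread. The level of OsWRKY94 was 53.9 and 50.3 TPM in light plumules against 50.8 and 46.9 TPM in dark plumules.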

How the data were processed

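For the 16 untreated libraries the deposited unit was TPM per gene. For m6A-SAC-seq the authors gave a pooled fraction between 0 and 1, a read depth count and a detection flag for each site and tissue, with coordinates on IRGSP 1.0, the rice build named in the submitters' processing notes. The unit of the expression file is not named in it, and TPM was read from the values, since each column sums to the fixed total of a TPM table. The flag header of the 2-week seedling is misspelled and was matched by elimination. The methods name the published m6A-SAC-seq code and spike-in calibration probes, and site numbers in the paper are of sites shared by both replicates. The aligner, the gene counter, and how the flag and the pooled fraction were set from the replicates were not given in the sources used here.

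Genes with 2 or more libraries at a TPM of 1 or above were tested with limma 3.58.1 (R 4.3.3, trend and robust variances) on log2(TPM + 1), all 16 libraries in 1 fit and tissue as factor, in 6 comparisons, two-sided, with Benjamini-Hochberg adjustment over all genes tested. Reads worked back from TPM and gene length were whole for 100% of values up to 100 reads (tolerance 0.1), and limma voom was run on these reads as an alternative. The fit was tested on simulated data. Other steps used pandas 2.3.3 and numpy 2.4.6 under Python 3.11.15, with matplotlib 3.10.9 for figures.

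The replicates were described as biological. The members, lists and tests were chosen with earlier results of these data known. Named genes were the 3 most abundant in each tissue, up to 5 rises and 5 falls per comparison with separate libraries and at least 5 TPM, genes with a known role, and those with most m6A sites. Other genes are named for a pattern seen in their values. Planned protein and promoter features were not run, because those sequences were not used here. No untreated m6A fraction was used. The precision of site values is limited by depth, and fractions have no replicate error.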

Additional observations from a re-analysis of the deposited data

How the results depend on the processing

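Requiring a fold change of at least 2 left 9 OsWRKY genes lower in flag leaf than in 2-week seedlings, 19 higher and 3 lower in 2-week than in 8-day seedlings, 23 higher and 2 lower in 8-day seedlings than in light plumules, and 8 higher and 13 lower in embryo than in endosperm. The other counts of calls stayed within 1.5 times under a pseudocount of 0.1, no filter, 2 tissues only in the fit, median-of-ratios factors, limma voom and leaving out each library in turn, where the lone library was assumed to vary like the other tissues. Fits without 1 library rest on a lone library for that tissue, and their counts are not listed here. Neither labels nor methods say that a replicate number marks shared plants or a shared day, and deviations of same-numbered libraries correlated between -0.20 and 0.24 over 28 tissue pairs, 14 of them above 0.1. With the number as a replicate block, 44 OsWRKY genes rose and 20 fell in flag leaf against 2-week seedlings, beside 9583 and 9850 of all 28562 genes tested. In panicle against flag leaf, 15 rose and 51 fell, beside 14165 and 7597 of all genes. No count of OsWRKY calls moved by over 1.5 times. The F test with the block passed 76 of 76 OsWRKY genes, OsWRKY56 included, beside 28209 of all genes. Median-of-ratios scaling gave summed means of 351 TPM in dark plumules, 362 in light plumules, 955 in 2-week seedlings, 417 in panicle, 1971 in flag leaf, 359 in embryo and 482 in endosperm, and the cause was not tested. Of 480 recomputed fold changes of named genes, 476 kept their call and direction, 4 lost the call, all for OsWRKY121 in 8-day seedlings against light plumules, and 0 reversed.

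With RAC motifs only, 108 sites were counted in any tissue and 57 in flag leaf. Sites in all 8 tissues numbered 2 at a depth of 50 and 15 with a fraction of at least 0.1 in place of the flag. With RAC motifs only, the 3' UTR minus CDS difference was 0.159, against 0.0626, and OsWRKY minus other genes -0.0562, against 0.000234. Light minus dark was 0.132 with no depth minimum, 0.0710 at a depth of 50, 0.0962 with a fraction of at least 0.1 in place of the flag, 0.0925 with RAC motifs only and 0.0372 over sites of the other 6 tissues.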
